A study of Mus musculus with 6 samples.

Results

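The genes described here encode the enzymes that make and break down prostaglandins and the receptors that read them. Of 10 listed genes (Ptgs1, Ptgs2, Ptges, Ptges2, Ptgis, Hpgd, Ptger2, Ptger3, Ptger4 and Ptgfr), 9 were measured by 19 probe sets whose platform annotation names only that gene, out of 34945 such probe sets for 18193 genes. No probe set was named for Ptgs1, the constitutive cyclooxygenase, so its expression was not analysed here. Each gene had 1 to 5 probe sets, and those of a gene are repeated readings of the same RNA, not replicates.

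The CAF samples were dermal fibroblasts from the visibly dysplastic ear skin of K14-HPV16 mice (strain given as HPV16), in which a keratin 14 promoter drives papillomavirus genes in basal keratinocytes and not in the fibroblasts themselves. The NDF samples were normal dermal fibroblasts from ears of non-transgenic FVB/n mice. All mice were male and 4 months old, and the cells of both groups were sorted for the surface receptor PDGFRα. Each group had 3 arrays, from 15 mice per genotype in all, and the labels call the arrays biological repetitions. The labels do not say whether each array came from a separate pool of mice. The p-values therefore measure only the spread between these samples, part of which may be technical.

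Prostaglandins are short-lived lipid signals. Cyclooxygenases turn arachidonic acid, released from membranes by phospholipases, into prostaglandin H2, and terminal synthases convert this into prostaglandin E2, prostacyclin and others, which act on neighbouring cells through G protein-coupled receptors. In skin, prostaglandin E2 is known for its part in inflammation, wound repair and tumour promotion, and the dehydrogenase Hpgd ends its action.

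Values are log2 RMA intensities, a scale on which 1 unit is a doubling of signal and on which low values are compressed. Array medians were 4.73 to 4.87, and 3 arrays a group limit the precision. The sort marker Pdgfra had 12.54 ± 0.11 in CAF and 12.46 ± 0.15 in NDF (SD, n = 3 each). The fibroblast marker genes were bright in both groups. Of 10, 0 were past the threshold of an adjusted p of 0.05 (limma, Benjamini-Hochberg over all 34945 probe sets) and 2 had an unadjusted p under 0.05. The shares over all genes were 0.335% and 8.84%. Those 2 went opposite ways, with a CAF minus NDF difference of 1.00 for Pi16 and -0.52 for Col1a2. All CAF arrays were above all NDF arrays for 1 of the 10 and below for 2. Some markers of neutrophils, macrophages, keratinocytes and endothelium passed the test as higher in CAF. CAF replicate 3 was the CAF array farthest from its group's median for 56.2% of all probe sets. It correlated with the other arrays at 0.911 to 0.932, where all other pairs of arrays correlated at 0.965 to 0.984. In RNA of a sorted population, fewer cells of a type and less RNA per cell cannot be told apart.

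Ptgs2, the inducible cyclooxygenase, rose in CAF, and it was the only member gene that passed the test. Its brighter probe set, 1417262_at, read 11.93, 12.22 and 12.19 on the CAF arrays and 8.73, 7.79 and 7.19 on the NDF arrays. Every CAF array lay well above every NDF array, and the CAF values lay closer together than the NDF values. The difference was 4.21 ± 0.39 (SE; 95% interval 3.29 to 5.13), or 18.5-fold (9.80 to 35.0), with a limma adjusted p of 0.0232.

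The second Ptgs2 probe set, 1417263_at, was dim in NDF. It read 4.93, 5.99 and 5.45 in CAF against 3.05, 3.17 and 2.97 in NDF, where all 3 values lay below the lower quartile of their arrays (3.55 to 3.58). The groups again did not overlap, and the difference was 2.39 ± 0.29 (limma adjusted p = 0.0424). Both readings thus had the same direction and differed in size. The NDF values of the dimmer probe set were at the compressed low end, and the reason for its smaller difference was not tested. In all, 2 of the 19 probe sets passed the test, both higher in CAF, where 0.226% of all probe sets passed, 0.206% as higher in CAF. Ptgs2 also belongs to the inflammatory list that the study drew from these samples, so its direction is not independent evidence.

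The Ptgs2 call depended on single arrays, although the difference did not. Leaving out 1 array gave the brighter probe set a difference of 3.85 to 4.63, and the limma adjusted p was 0.0516 without CAF replicate 1, 0.0779 without CAF replicate 2, 0.142 without NDF replicate 2 and 0.103 without NDF replicate 3. The second probe set kept its call only without CAF replicate 1 (adjusted p = 0.0353) among these 6 fits, and it missed the threshold on repeated quantile normalisation and on cyclic loess (adjusted p = 0.052 and 0.0549).

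The window around the annotated start of Ptgs2 is shown because it was the member that rose, and that of Ptges because it was the other member whose highest-mean probe set did not overlap between the groups. Both windows hold the 250 bases before the annotated start and the 50 bases from it, 300 bases in all, 5′ to 3′ on the gene's strand, from RefSeq (GRCm38.p6), at chr1:150099781-150100080 (plus strand) and chr2:30903248-30903547 (minus strand). Capitals mark matches to the motifs searched on both strands.
Ptgs2: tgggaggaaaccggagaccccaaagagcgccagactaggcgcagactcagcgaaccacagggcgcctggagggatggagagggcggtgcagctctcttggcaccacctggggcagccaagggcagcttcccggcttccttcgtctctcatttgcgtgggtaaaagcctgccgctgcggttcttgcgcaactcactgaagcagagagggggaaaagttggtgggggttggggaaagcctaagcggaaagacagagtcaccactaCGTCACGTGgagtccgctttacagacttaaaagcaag
Ptges: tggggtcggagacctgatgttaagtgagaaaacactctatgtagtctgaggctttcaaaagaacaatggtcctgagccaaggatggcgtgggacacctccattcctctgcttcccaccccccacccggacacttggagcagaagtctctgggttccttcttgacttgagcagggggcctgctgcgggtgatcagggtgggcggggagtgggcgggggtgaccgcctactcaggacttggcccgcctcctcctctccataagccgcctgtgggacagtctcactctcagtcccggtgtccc

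The motifs were TATAAA, the cyclic AMP response core TGACG, the E-box CACGTG, the AP-1 site TGANTCA and the NF-κB consensus. The capitals in Ptgs2 are a TGACG match on the opposite strand, at bases 14 to 18 counted with the start as base 1, and an overlapping E-box at bases 17 to 22. Of all 32851 promoter windows of this length, 20.8% held TGACG and 7.15% held CACGTG. The Ptges window held none of the 5 motifs. Windows were given for 9 of the 10 listed genes, Ptgs1 included and Ptgis not. Of these 9, Ptges2 held an E-box and Hpgd held TATAAA, at bases 5 to 10, where 13.6% of all windows held TATAAA. AP-1 and NF-κB matches were in 0 of these 9 windows, against 7.81% and 4.51% of all windows. These are matches of letters only, and no match says only that those letters are not in the window.

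**Figure D1:**
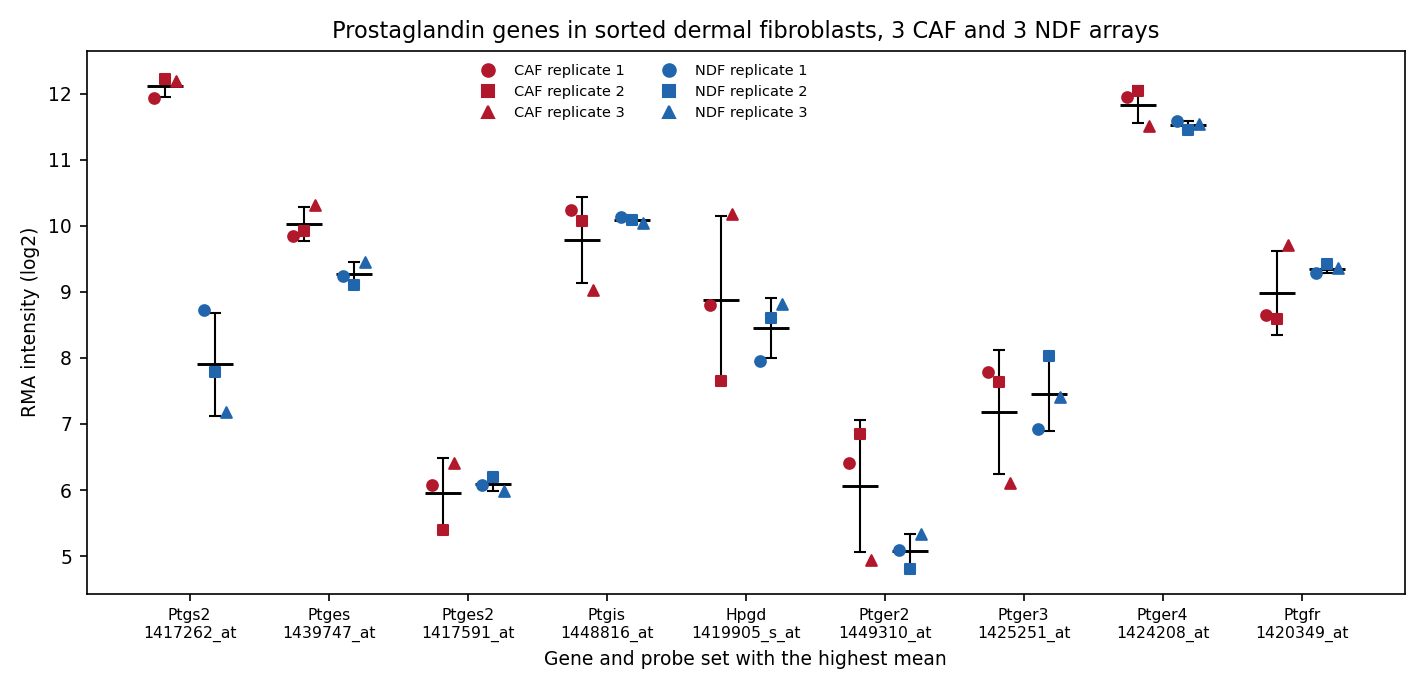
Log2 RMA intensity (vertical axis) of the highest-mean probe set of each gene on 3 CAF arrays (red, left of each pair) and 3 NDF arrays (blue, right), with marker shape for the replicate number, bars for the mean and whiskers for the SD. Ptgs2 stands apart, at 11.93 to 12.22 in CAF and 7.19 to 8.73 in NDF, and the triangle of CAF replicate 3 lies away from the other CAF arrays for Hpgd, Ptgis, Ptger2, Ptger3 and Ptgfr.

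Among the terminal synthases none passed the test, where 0.226% of all probe sets did, and Ptges had the largest difference. Ptges, the inducible microsomal prostaglandin E synthase that is often coupled to Ptgs2, read 9.84, 9.93 and 10.32 in CAF against 9.24, 9.10 and 9.46 in NDF at 1439747_at. All CAF values were above all NDF values, by a narrow margin at the nearest pair. The difference was 0.76 ± 0.21 (95% interval 0.26 to 1.26), or 1.70-fold, with an unadjusted p of 0.00896 and a limma adjusted p of 0.352.

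The other Ptges probe sets gave smaller differences. At 1449450_at the values were 7.32, 6.65 and 7.30 in CAF and 6.24, 6.33 and 6.86 in NDF, a difference of 0.61 ± 0.27. At 1449449_at they were 6.69, 6.54 and 5.94 in CAF and 5.87, 6.52 and 6.75 in NDF, a difference of 0.01 (95% interval -0.73 to 0.75). Both overlapped between the groups, so the 3 readings of Ptges disagreed in size, and the last changed sign on repeated quantile normalisation and on equal array medians.

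Ptges2, a second membrane-associated prostaglandin E synthase that is usually constitutive, read 6.08, 5.39 and 6.41 in CAF against 6.07, 6.20 and 5.99 in NDF. CAF replicate 1 lay among the NDF values, CAF replicate 2 below and CAF replicate 3 above them, with a difference of -0.13 (95% interval -0.80 to 0.55). Ptgis, which makes prostacyclin, was bright in both groups, at 10.24, 10.07 and 9.03 in CAF against 10.13, 10.09 and 10.05 in NDF. Its difference of -0.31 (95% interval -1.10 to 0.48) came with CAF replicate 3, and without that array it was 0.07.

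Hpgd, the 15-hydroxyprostaglandin dehydrogenase that starts the breakdown of prostaglandin E2, varied more among the CAF arrays than between the groups. It read 8.80, 7.64 and 10.18 in CAF against 7.95, 8.61 and 8.82 in NDF at 1419905_s_at. The highest and the lowest of the 6 values were both CAF arrays. The difference was 0.42 with a 95% interval of -1.05 to 1.88 (limma adjusted p = 0.959), and it was -0.24 without CAF replicate 3. The second probe set, 1419906_at, gave the same order of CAF arrays, at 8.27, 7.23 and 9.74, against 7.59, 8.13 and 8.30 in NDF, and a difference of 0.41, or -0.26 without CAF replicate 3. A change in either direction by 2-fold lies within these intervals.

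**Figure D2:**
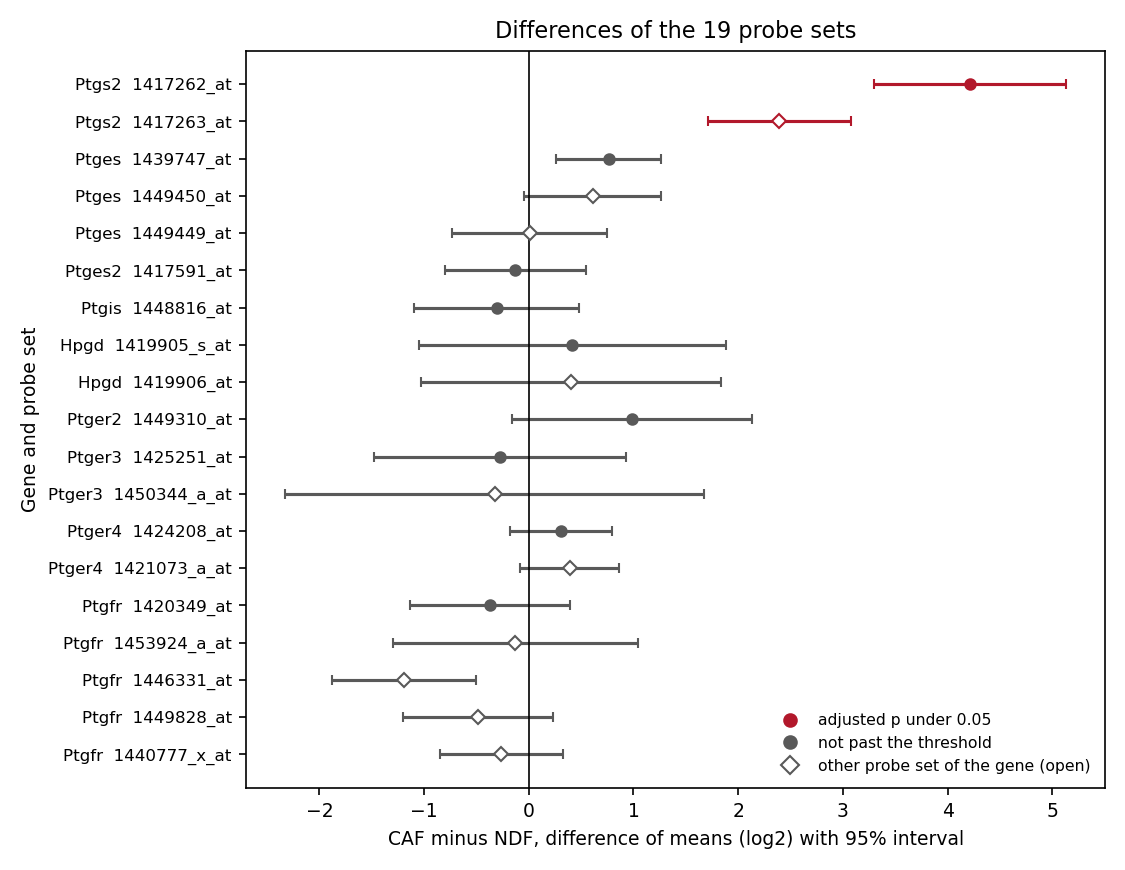
Difference of means, CAF minus NDF (log2, horizontal axis), with its 95% interval for each of the 19 probe sets, grouped by gene. Filled circles are the highest-mean probe set of a gene, open diamonds its other probe sets, and red marks the 2 Ptgs2 probe sets with an adjusted p under 0.05, at 4.21 and 2.39.

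None of the prostaglandin receptor genes passed the test, where 0.226% of all probe sets did. Ptger2 encodes EP2, a receptor for prostaglandin E2 that raises cyclic AMP. It read 6.41, 6.85 and 4.94 in CAF against 5.09, 4.81 and 5.33 in NDF. CAF replicates 1 and 2 were above all NDF arrays and CAF replicate 3 was among them. The difference was 0.99 ± 0.48 (95% interval -0.16 to 2.14, limma adjusted p = 0.726). Single arrays moved this value both ways: it was 1.55 (95% interval 0.98 to 2.12, limma adjusted p = 0.0779) without CAF replicate 3 and 0.60 (95% interval -0.53 to 1.73, limma adjusted p = 0.769) without CAF replicate 2.

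Ptger4 encodes EP4, the other cyclic AMP-raising receptor for prostaglandin E2, and was bright in both groups. Its values were 11.95, 12.03 and 11.51 in CAF against 11.58, 11.45 and 11.54 in NDF at 1424208_at. CAF replicates 1 and 2 were above all NDF arrays, and CAF replicate 3 lay between NDF values. The difference was 0.31 (95% interval -0.18 to 0.79), and 0.21 to 0.47 when 1 array was left out. The dimmer probe set, 1421073_a_at, read 5.66, 5.52 and 5.47 in CAF against 4.90, 5.38 and 5.20 in NDF, with no overlap and a difference of 0.39 (95% interval -0.08 to 0.86, limma adjusted p = 0.744).

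Ptger3 encodes EP3, a receptor for prostaglandin E2 that mainly lowers cyclic AMP. It read 7.79, 7.64 and 6.10 in CAF against 6.92, 8.03 and 7.41 in NDF at 1425251_at. At 1450344_a_at it read 7.36, 6.60 and 3.90 in CAF against 6.01, 6.77 and 6.07 in NDF. On both probe sets CAF replicate 3 was the lowest of the 6 arrays. The differences were -0.28 and -0.33, with 95% intervals of -1.48 to 0.93 and -2.33 to 1.67, and without CAF replicate 3 they were 0.26 and 0.70.

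Ptgfr encodes FP, the receptor for prostaglandin F2α, and its 5 probe sets were all lower in CAF on average, by sizes that differed. The highest-mean probe set, 1420349_at, read 8.65, 8.58 and 9.71 in CAF against 9.28, 9.42 and 9.36 in NDF, a difference of -0.37 (95% interval -1.14 to 0.39). CAF replicates 1 and 2 lay below every NDF array, and CAF replicate 3 above. The difference was -0.74 without CAF replicate 3 and -0.21 or -0.17 without CAF replicate 1 or 2. At 1453924_a_at the values were 8.66, 8.36 and 10.04 in CAF and 9.31, 8.54 and 9.60 in NDF, again with CAF replicate 3 as the highest, and the difference of -0.13 was -0.64 without it.

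One Ptgfr probe set, 1446331_at, separated the groups. It read 6.93, 6.68 and 6.004 in CAF against 7.58, 8.03 and 7.58 in NDF, with every CAF array below every NDF array. The difference was -1.19 ± 0.29 (95% interval -1.88 to -0.51), with an unadjusted p of 0.00466 and a limma adjusted p of 0.265. On this probe set CAF replicate 3 was the lowest array, whereas on 1420349_at and 1453924_a_at it was the highest, so the probe sets of Ptgfr ranked the arrays differently. The remaining probe sets, 1449828_at and 1440777_x_at, were dim, at 3.06 to 3.82 in CAF and 3.41 to 4.32 in NDF, with differences of -0.49 and -0.26 and overlapping groups.

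Over the 19 probe sets, all CAF arrays were above all NDF arrays for 4 (both of Ptgs2, 1 of Ptges and 1 of Ptger4), and below for 1 (Ptgfr). The same held for 5.92% and 7.98% of all probe sets. At an unadjusted p under 0.05, 4 member probe sets differed, 3 higher and 1 lower in CAF, where 7.78% of all probe sets differed, 4.08% as higher and 3.69% as lower. The median difference was 0.01 over the member probe sets and 0.31 over the 9 genes by their highest-mean probe set, beside -0.03 over all probe sets and -0.04 over all genes. Differences of 10 member probe sets were positive and of 9 negative.

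The spread within CAF was wider than within NDF for 15 of the 19 member probe sets, 78.9%, beside 70.2% of all probe sets. The median SD of the members was 0.52 in CAF and 0.26 in NDF. CAF replicate 3 was the CAF array farthest from the group's median for 13 of the 19 (68.4%), against 56.2% of all probe sets. It was the highest of the CAF arrays for Hpgd and for 3 of the 5 Ptgfr probe sets, and the lowest for Ptgis, Ptger2, Ptger3 and Ptger4. Leaving it out turned the sign of the difference for Ptgis and for both probe sets of Ptger3 and Hpgd.

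**Figure D3:**
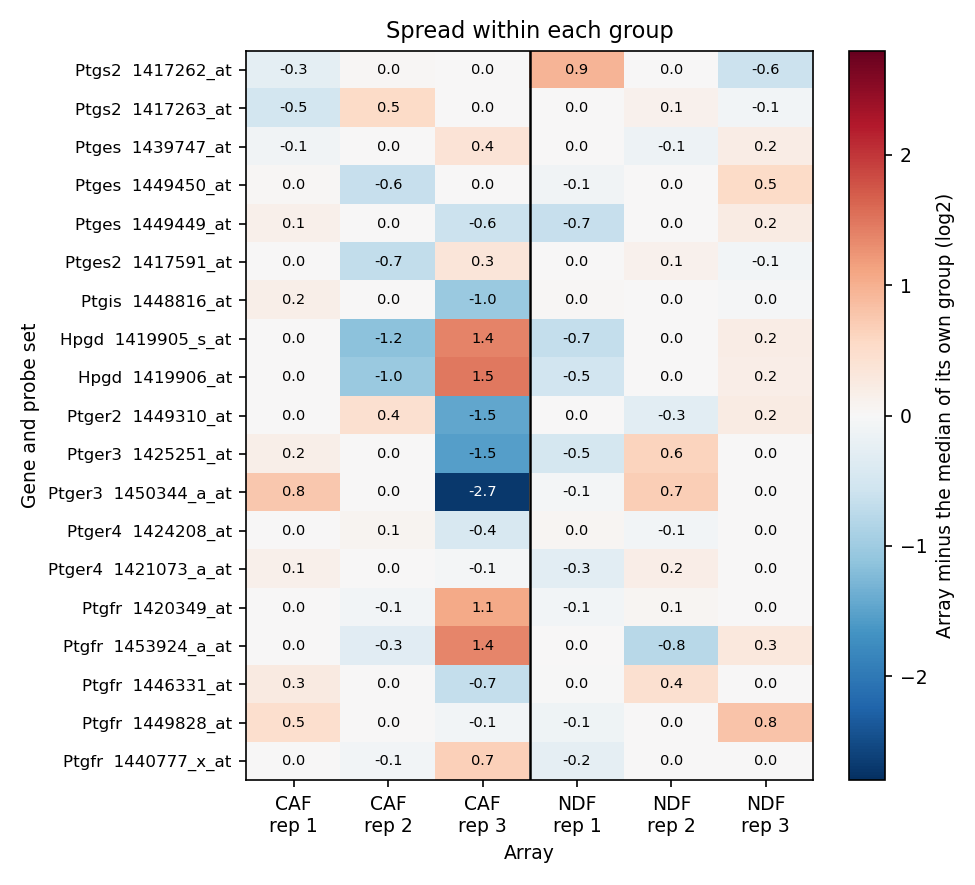
Deviation of each array (columns, CAF left of NDF) from the median of its own group in log2 units (colour and printed value) for the 19 member probe sets (rows). The column of CAF replicate 3 holds the largest deviations, low for Ptger2 and Ptger3 and high for Hpgd, and the brighter Ptgs2 probe set deviates mainly within NDF, where its values were 8.73, 7.79 and 7.19.

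Members were also compared with each other within each array, which asks whether their changes were unequal. The log2 difference of Ptgs2 minus Hpgd, the inducible cyclooxygenase against the breakdown enzyme, was 3.13, 4.58 and 2.01 in CAF against 0.78, -0.82 and -1.63 in NDF. The groups did not overlap, and the change was 3.80 (two-sided exact permutation p = 0.1, the smallest that 3 against 3 allows, adjusted p = 0.3 over 3 pairs). For Ptges minus Hpgd the change was 0.35 (exact permutation p = 0.7, adjusted p = 0.7), and for Ptger4 minus Ptger2 it was -0.68 (exact permutation p = 0.3, adjusted p = 0.45). Without CAF replicate 2 or 3 the last change was -0.39 or -1.08, and leaving out any 1 array put the change of Ptges minus Hpgd between -0.22 and 0.85. These differences mix the readings of unlike probe sets, so only their change between groups can be read.

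The genes whose profile over the 6 arrays was nearest to that of Ptgs2, measured as the root mean square difference of mean-centred log2 values among 18192 other genes, were Clec7a, Cd53, Tyrobp, Ctss and Srgn, at 0.48 to 0.52 log2 units. Clec7a, the receptor for fungal β-glucan, read 7.07, 8.51 and 7.47 in CAF against 4.72, 3.75 and 3.62 in NDF. Tyrobp, a signalling adaptor of myeloid cells that is also in the macrophage and dendritic cell list, read 7.66, 8.68 and 8.59 in CAF against 4.99, 4.40 and 4.59 in NDF. Srgn, a proteoglycan of secretory granules, read 11.32, 12.28 and 11.65 in CAF against 7.98, 7.19 and 7.92 in NDF. All 5 had every CAF array above every NDF array, which follows from choosing them as nearest to Ptgs2 and is not a separate result.

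Several marker genes of other cells also differed between the groups. Over all genes 0.335% passed the test in either direction and 8.84% had an unadjusted p under 0.05 by limma. For 6.78% of all genes every CAF array was above every NDF array. Of 10 measured neutrophil markers, 3 passed as higher in CAF (Clec4d, S100a8 and Trem1, by 6.47, 6.04 and 4.14). All CAF arrays were above all NDF arrays for 8. The summed linear intensity of the 10 was 8368 to 18863 in CAF and 180 to 752 in NDF. Of 14 macrophage and dendritic cell markers, 3 passed as higher in CAF (Tyrobp, Ptprc and Cd14, by 3.65, 4.33 and 4.03). All CAF arrays were above all NDF arrays for 13, with sums of 2468 to 6941 in CAF and 538 to 875 in NDF. Of 13 keratinocyte markers, 3 passed as higher in CAF (Krt6b, Krt6a and Krt16, by 6.60, 5.05 and 4.82). All CAF arrays were above all NDF arrays for 11, with sums of 6951 to 15719 in CAF and 2795 to 3085 in NDF.

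Of 10 endothelial markers 1 passed the test as higher in CAF (Lyve1, by 3.38). All CAF arrays were above all NDF arrays for 8, and 8 had an unadjusted p under 0.05 by limma. The sums were 1430 to 3981 in CAF and 975 to 1466 in NDF. Tek, the brightest of the 10 in NDF at 9.19 to 10.13, overlapped between the groups and weighs most in the NDF sums. Of 9 mast cell markers and of 7 measured lymphocyte markers 0 passed by limma, with 4 and 3 at an unadjusted p under 0.05. All CAF arrays were above all NDF arrays for 3 of the 9 (Fcer1a, Hdc and Ms4a2, by 1.31, 3.67 and 1.44), and 6 overlapped. The same held for 3 of the 7 (Cd3g, Cd3e and Cd3d, by 2.38, 4.05 and 1.76), and 4 overlapped. The mast cell sum was 219 to 1269 in CAF and 172 to 254 in NDF, and the lymphocyte sum 232 to 760 in CAF and 149 to 153 in NDF. The fibroblast sum was 52389 to 62069 in CAF and 59141 to 65331 in NDF. RMA has no zero, so no marker is listed at 0. The part of these cells in the Ptgs2 difference was not tested.

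The rest of the prostaglandin pathway was measured by 27 of 30 further genes: phospholipases, other synthases, transporters, reductases and receptors. By limma 0 of the 27 passed, with 2 at an unadjusted p under 0.05, both lower in CAF, and the median difference was 0.02. Over all genes 0.335% passed and 8.84% had an unadjusted p under 0.05. All CAF arrays were below all NDF arrays for 4 of the 27 and above for 0, against 8.66% and 6.78% of all genes.

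Pla2g5, a secreted phospholipase A2, had 8.18, 8.39 and 8.12 in CAF against 8.89, 9.11 and 9.20 in NDF, with no overlap, a difference of -0.84 ± 0.18 and a limma adjusted p of 0.212. Akr1c18, a mouse aldo-keto reductase that metabolises progesterone and prostaglandins, had 6.51, 5.81 and 6.39 in CAF against 8.11, 7.18 and 6.51 in NDF, a difference of -1.03 (adjusted p = 0.635). The groups were also apart for Pla2g4d, a cytosolic phospholipase of epidermis, and for Ptgfrn, a membrane protein described as a negative regulator of the FP receptor, with differences of -0.40 and -0.36 (adjusted p = 0.705 and 0.717). Pla2g4d was dim, at 3.54 to 3.80 in CAF and 3.87 to 4.20 in NDF, near the low end where RMA values are compressed.

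The lipoxygenase and leukotriene branch, which uses the same arachidonic acid, was measured by 15 of 16 genes, and 0 passed by limma, beside 0.335% of all genes. At an unadjusted p under 0.05 there were 3, each higher in CAF, beside 8.84% of all genes in either direction. The median over the 15 was 0.17, and all CAF arrays were above all NDF arrays for 5, beside 6.78% of all genes. Alox5ap, the protein that presents arachidonic acid to 5-lipoxygenase in leukocytes, had 6.47, 7.56 and 8.22 in CAF against 4.92, 4.16 and 4.08 in NDF, a difference of 3.03 ± 0.47 (limma adjusted p = 0.0812). Fpr2, a receptor for lipoxin and formyl peptides, had 7.40, 9.55 and 6.20 in CAF against 3.67, 4.37 and 2.94 in NDF, a difference of 4.06 ± 0.83 (adjusted p = 0.174). For both genes the groups were apart. The leukotriene B4 receptor gene Ltb4r1 and the lipoxygenase gene Alox5 differed by 0.60 and 0.51 (limma adjusted p = 0.576 and 0.698). The groups were apart for Ltb4r1 and overlapped for Alox5. The neutrophil and macrophage sums given above apply to these arrays too, and their part in these differences was not tested.

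**Figure D4:**
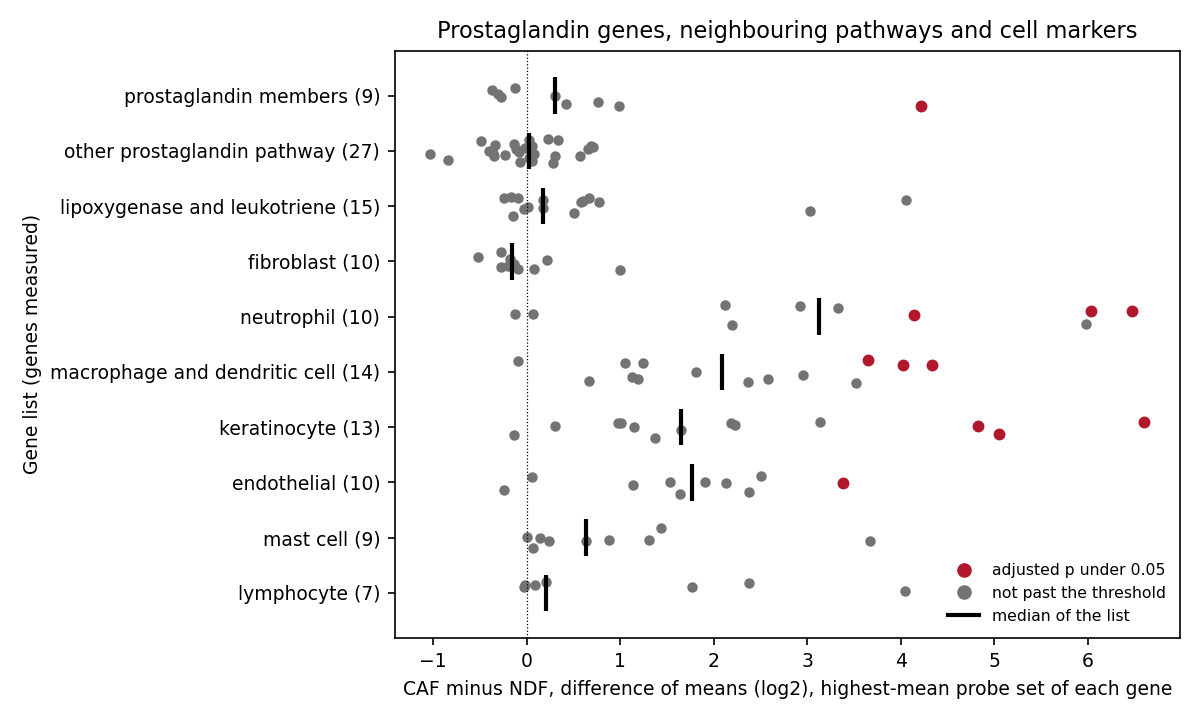
Difference of means, CAF minus NDF (log2, horizontal axis), of the highest-mean probe set of each gene, with a row per gene list, the number of measured genes in brackets and a bar at the list's median. In the rows of prostaglandin genes only Ptgs2 is past the threshold (red), whereas the neutrophil, macrophage and keratinocyte rows hold 3 such genes each.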

How the data were processed

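The deposited table holds log2 intensities, 1 value for each of 45101 probe sets on each of 6 Affymetrix mouse arrays. Per the submitters' processing notes GCOS and RMA were used, and their versions, like the genome build, are not stated in the sources used here. RMA corrects background, quantile normalises arrays and summarises probes, so total signal is lost and low values are compressed. Per the labels' protocols RNA went through a single amplification round (WT-Ovation), which can add noise between arrays when cells are few.

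Names came from the platform annotation: after 64 controls, 34945 probe sets named 1 gene, 932 several and 9160 none here. Of these, 34741 matched a gene identifier in RefSeq (GRCm38.p6), and 0 symbols needed an update.

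The comparison of CAF with NDF used limma 3.58.1 under R 4.3.3 (lmFit, eBayes, two-sided, group as the only term, Benjamini-Hochberg over all 34945 probe sets, threshold 0.05). A gene in a list was counted by its probe set with the highest mean. On simulated data of 34945 probe sets the procedure recovered 2%, 52%, 94% and 86% of 50 probe sets changed by 1, 2, 3 and 4 log2 units, with 7 false calls. The simulated noise was normal and equal in both groups, with residual SDs shuffled among probe sets. In the data the CAF SD was the larger for 70.2% of probe sets, so these shares need not hold for the real comparison. A planned comparison of Ptgs2 with Ptgs1 was not run. Promoter windows came from RefSeq.

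The members and lists were chosen with earlier results of these data known. The text names every member, of the further pathway lists the genes past the threshold and the 4 with the smallest p, the 5 profiles nearest to Ptgs2, and up to 3 markers of a cell type. Of the nearest 5, values are given for 3. Deviations of same-numbered CAF and NDF arrays correlated at -0.15, 0.13 and -0.02 for numbers 1, 2 and 3. With 3 arrays a group this check cannot tell whether the numbers pair samples, and the main fit did not pair them. Alternatives were a replicate block, repeated quantile normalisation, cyclic loess, equal medians, a filter on dim probe sets, 1 or the mean of all probe sets per gene, dropping cross-matching suffixes, an intensity trend, a robust prior, array weights, adjusted p under 0.1 and leaving out each array. Plots were made in Python 3.11.15 with matplotlib 3.10.9.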

Additional observations from a re-analysis of the deposited data

How the results depend on the processing

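The Ptgs2 difference stayed between 3.30 and 4.63 log2 units under the alternatives run, for the brighter probe set or the mean of both. Of the 2 member probe sets called, 1 passed on repeated quantile normalisation, on cyclic loess and on the filter at the median probe set, which removes the dim Ptgs2 probe set, and leaving out 1 array gave 0 to 1. With the replicate block 0 member probe sets passed (adjusted p = 0.0975 and 0.126 for Ptgs2) and 10 over all. Whether the numbers pair the samples is not known. The count over all probe sets was 79, against 49 on repeated quantile normalisation, 158 with an intensity trend, 467 with array weights, 204 at adjusted p under 0.1, and 7 to 107 without 1 array. Over genes 61 were called, against 94 with 1 probe set per gene and 125 with the mean of all.

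In the lipoxygenase list Alox5ap, with 0 other probe sets to average, made 1 call in the fit on gene means and 1 at adjusted p under 0.1. Leaving out 1 array gave 0 to 1 calls. With array weights that list had 2 (Alox5ap and Fpr2) and the further prostaglandin list 1 (Pla2g5). Signs turned for the Ptges probe set 1449449_at (-0.018 on repeated quantile normalisation, -0.0092 on equal medians), and with array weights for Ptgis (0.070) and Ptger3 (0.20 and 0.78). Without 1 array, signs turned within -0.25 to 0.23 for 1449449_at, -0.35 to 0.16 for Ptges2, -0.54 to 0.067 for Ptgis, -0.59 to 0.26 and -1.03 to 0.70 for Ptger3, -0.24 to 1.03 and -0.26 to 1.00 for Hpgd, -0.64 to 0.20 for the Ptgfr probe set 1453924_a_at, and -0.22 to 0.85 for Ptges minus Hpgd. The causes were not tested. Signal near the low end of RMA limits the dim Ptgs2, Ptgfr and Pla2g4d probe sets.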
